A study of Caenorhabditis elegans with 3 samples.

Results

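The regions described are ELT-3 binding peaks at genes for small structural RNAs: every peak of the pooled list on the ce11 build whose summit, the authors' point of highest signal, lay within 200 bp of a tRNA, snoRNA or snRNA gene on a nuclear chromosome. There were 514 such peaks among 26508 in the pooled list, with 349 nearest to a tRNA gene, 136 to a snoRNA gene and 29 to an snRNA gene. The assay was ChIP-seq, in which DNA bound by a protein is pulled down and sequenced, on whole larvae of stage L1 and of both sexes from the C. elegans strain OP75, genotype unc-119(ed3) III; wgIs75, in which the transgene wgIs75 supplies ELT-3 with GFP and FLAG at its C terminus. There was a single group of 3 libraries, 2 of them technical repeats from biological replicate 1 and the other from biological replicate 2, and no condition was compared. The strain is 1 transgenic line and its larvae were taken whole, so the tissue in which a site was bound is not given by these data.

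ELT-3 belongs to the GATA family of transcription factors and is known from the epidermis, and such factors bind WGATAR, in which the first letter stands for A or T and the last for A or G. tRNA genes are transcribed by RNA polymerase III from elements inside the gene, the A box and the B box, the latter bound by the factor TFIIIC. Small nucleolar RNAs guide chemical modification of ribosomal RNA, and their genes lie in introns of host genes or have promoters of their own. Small nuclear RNAs serve splicing and trans-splicing, and their genes have a proximal sequence element upstream of the start that is bound by the SNAPc complex. In C. elegans the sls-1 and sls-2 genes encode the SL1 and SL2 spliced leader RNAs, which are joined to the ends of many messenger RNAs.

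Sequences of 3 kinds of gene start at which summits lay are shown, read from the WBcel235 genome along the strand of the gene. The first 3 are tRNA genes among the 10 with the strongest peaks, each with 40 bases before it, and capitals mark matches to the B box letters GTTCGANNC. They are R04D3.t2, a tRNA-Val gene (chrX:13306994-13307106, plus strand), C04A11.t1, a tRNA-Leu gene (chrX:13665515-13665673, plus strand), and F46G11.t2, a tRNA-Pro gene (chrX:5801211-5801322, minus strand), which has no exact match.
R04D3.t2: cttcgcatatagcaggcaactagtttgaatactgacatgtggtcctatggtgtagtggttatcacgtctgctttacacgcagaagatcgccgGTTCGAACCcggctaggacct
C04A11.t1: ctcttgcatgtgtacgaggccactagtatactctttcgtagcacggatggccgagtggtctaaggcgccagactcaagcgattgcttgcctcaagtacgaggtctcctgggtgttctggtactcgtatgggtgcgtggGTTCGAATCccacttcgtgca
F46G11.t2: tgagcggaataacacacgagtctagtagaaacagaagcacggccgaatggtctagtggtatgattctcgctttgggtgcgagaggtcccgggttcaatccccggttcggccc

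The next 4 are snoRNA gene starts, with 60 bases before the gene and its first 20 bases, shown because a B box match stands in capitals just before the gene. They are F12F6.11 (chrIV:11549845-11549924, minus strand), F11A10.9 (chrIV:12086649-12086728, plus strand), M106.6 (chrII:10840257-10840336, plus strand) and C41C4.11 (chrII:8107251-8107330, minus strand).
F12F6.11: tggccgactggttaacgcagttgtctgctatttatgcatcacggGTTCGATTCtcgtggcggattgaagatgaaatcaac
F11A10.9: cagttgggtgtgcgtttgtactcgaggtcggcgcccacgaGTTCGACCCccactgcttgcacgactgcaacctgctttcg
M106.6: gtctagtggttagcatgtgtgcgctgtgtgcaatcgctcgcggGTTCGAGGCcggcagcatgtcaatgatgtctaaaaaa
C41C4.11: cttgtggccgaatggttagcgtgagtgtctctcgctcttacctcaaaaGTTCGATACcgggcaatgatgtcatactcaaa

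The last 4 are the 100 bases before snRNA genes with strong peaks, in 2 pairs chosen after they were read, and capitals mark the longest run of bases that the members of a pair share. sls-2.1 (chrII:5844765-5844864, plus strand) and sls-2.2 (chrII:5543498-5543597, plus strand) share 17 bases that end at the gene start. sls-2.8 (chrIII:12250365-12250464, plus strand) and W05B2.8 (chrIII:10989579-10989678, plus strand) share a run of 9 bases.
sls-2.1: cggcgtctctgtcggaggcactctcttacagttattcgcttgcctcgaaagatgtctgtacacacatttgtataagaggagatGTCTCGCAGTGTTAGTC
sls-2.2: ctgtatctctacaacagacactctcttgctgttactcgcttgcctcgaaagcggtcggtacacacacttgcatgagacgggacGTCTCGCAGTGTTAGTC
sls-2.8: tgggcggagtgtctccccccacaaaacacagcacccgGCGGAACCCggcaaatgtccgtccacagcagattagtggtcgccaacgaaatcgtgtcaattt
W05B2.8: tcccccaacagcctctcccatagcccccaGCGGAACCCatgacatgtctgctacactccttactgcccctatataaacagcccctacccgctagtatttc

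The data are peak lists without read counts, so library depth is unknown, and control or untagged libraries are not analysed here, so whether these peaks depend on the tagged protein was not tested. The list of each replicate held 30000 peaks for replicate 1 and 27330 for replicate 2. The authors also deposited a list thresholded on reproducibility between replicates, with 4530 peaks, and all 4530 were the pooled peaks with the highest signal. Being in the thresholded list is therefore the same as ranking in the top 4530 by pooled signal. The signal is the authors' value per peak on a scale that is not stated, and it serves here to rank peaks within 1 list. Shares carry exact Clopper-Pearson 95% intervals that cover counting error only. Peaks at neighbouring or identical gene copies are not independent, and 36 of the 514 peaks lay within 200 bp of more than 1 gene of the 3 biotypes.

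Pooled summits were dense at tRNA and snoRNA genes, and at snRNA genes about as dense as at protein-coding starts. Within 200 bp of tRNA genes there were 127.8 pooled summits per 100 kb, at snoRNA genes 74.6 and at snRNA genes 45.6, against 43.7 within 200 bp of protein-coding transcript starts and 26.4 over the 6 nuclear chromosomes. In the thresholded list the densities were 28.9 at tRNA, 35.1 at snoRNA and 19.8 at snRNA genes, against 13.4 at protein-coding starts and 4.52 over the chromosomes. Pooled summits were thus densest at tRNA genes. Thresholded ones were densest at snoRNA genes, with 64 summits there and 79 at tRNA genes, and these densities carry no intervals. Pseudogenes had 8.96 pooled and 0.422 thresholded summits per 100 kb.

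Counted by gene, 348 of 612 tRNA genes (56.9%, 95% interval 52.8 to 60.8%) had a pooled summit within 200 bp, as did 131 of 346 snoRNA genes (37.9%, 32.7 to 43.2%) and 26 of 129 snRNA genes (20.2%, 13.6 to 28.1%). Over all nuclear genes the share was 28.5%, and over protein-coding genes, which are far longer, 46.1%. With the thresholded list, 86 tRNA genes (14.1%, 11.4 to 17.1%), 64 snoRNA genes (18.5%, 14.5 to 23%) and 10 snRNA genes (7.75%, 3.78 to 13.8%) had a summit. The intervals for tRNA and snoRNA genes overlapped. The shares were 7.08% over all nuclear genes and 11.8% over protein-coding genes. The share for snRNA genes in the thresholded list was close to that of all genes, and its interval also covered that of protein-coding genes. The 46890 nuclear genes include 15363 piRNA genes, of which 8.44% had a pooled and 0.475% a thresholded summit. The piRNA genes thus lower the shares over all genes, and shares without them were not computed. Of the 20 annotated rRNA genes 0 had a pooled summit, though 1 had a summit in the replicate 1 list. Whether reads could be placed at single rRNA genes was not tested. Of miRNA genes 14.9% had a pooled summit.

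**Figure D1:**
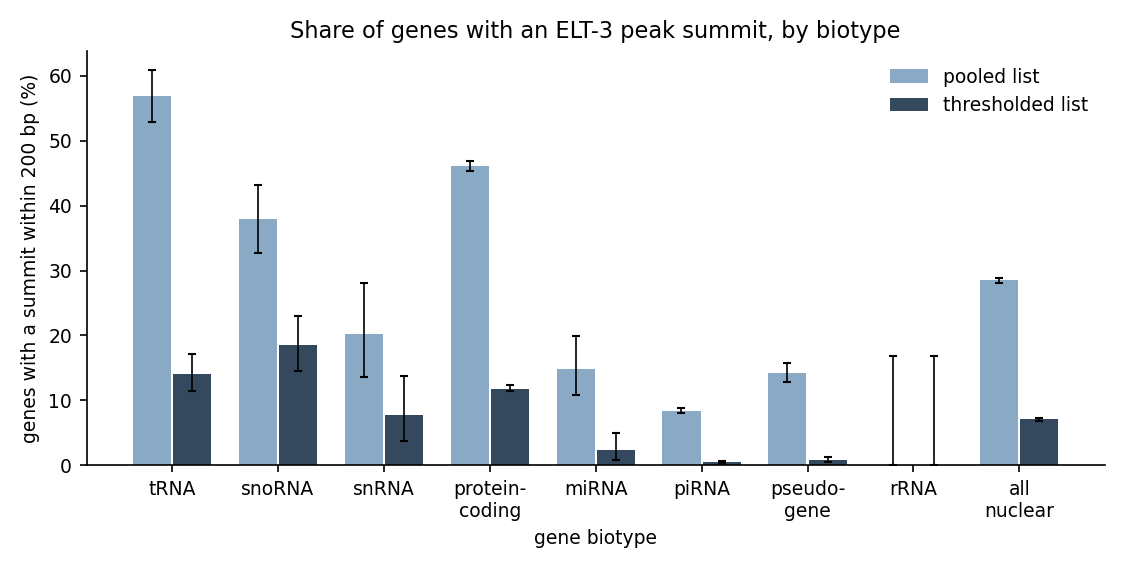
Share of genes of each biotype (x axis) with a summit within 200 bp, in percent (y axis), for the pooled and the thresholded list, with exact 95% intervals. tRNA genes reach 56.9% in the pooled list, snoRNA genes reach 18.5% in the thresholded list, and rRNA genes stand at 0.

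Of the 514 peaks, 156 (30.4%, 26.4 to 34.5%) were in the thresholded list, against 17.1% of all pooled peaks. The share was 79 of 349 at tRNA genes (22.6%, 18.4 to 27.4%), 64 of 136 at snoRNA genes (47.1%, 38.4 to 55.8%) and 13 of 29 at snRNA genes (44.8%, 26.4 to 64.3%). The median pooled signal was 21.8 at tRNA, 33.2 at snoRNA and 32.1 at snRNA genes, against 12.8 over all pooled peaks, and 81.1% of the 514 peaks ranked in the upper 50% of the list. Among the 1000 strongest pooled peaks were 13 of the 514 (2.53%, 1.35 to 4.29%), an interval that covers the 3.77% of all pooled peaks. By biotype the shares differed. tRNA peaks had 2 of 349 (0.573%, 0.0695 to 2.05%), snoRNA peaks 7 of 136 (5.15%, 2.09 to 10.3%) and snRNA peaks 4 of 29 (13.8%, 3.89 to 31.7%). Among the 100 strongest there were 0 of the 514. The strongest of them ranked 238 in the pooled list.

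**Figure D2:**
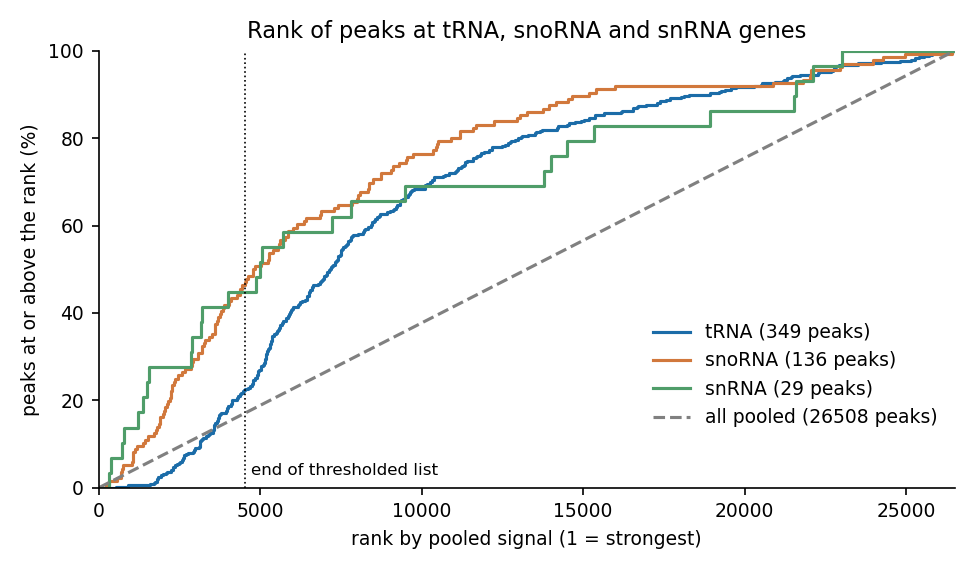
Cumulative share of peaks (y axis, percent) by rank in the pooled list (x axis, 1 is strongest) at tRNA, snoRNA and snRNA genes, with all pooled peaks on the dashed diagonal and the end of the thresholded list dotted. The snoRNA and snRNA curves rise earliest, with 47.1% and 44.8% of their peaks inside the thresholded list, and the tRNA curve stands at 22.6% there.

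The 200 bp limit fell where peaks were few. The 10 peaks with summits 181 to 200 bp from a gene had a median signal of 18.6 and 3 were thresholded, and the 8 peaks at 201 to 220 bp had a median of 13.5 and 2 were thresholded.

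At tRNA genes, summits gathered at the start of the gene. Per 50 bp bin, the pooled list had 15 summits per 100 tRNA genes in the 50 bp before the start and 17 in the first 50 bp of the gene, and 8.66 in the next bin. The same bins before and after the start held 18.5 and 17.2 in replicate 1 alone, but 7.19 and 9.15 in replicate 2 alone. Replicate 2 was thus lower in both bins, although these were its highest 2 within 200 bp of the start. Relative to the nearest tRNA gene, 38.4% of pooled summits lay upstream, 40.4% inside and 21.2% downstream, with a median of 22 bp into the gene. Among the 79 thresholded peaks, 50.6% lay upstream, 40.5% inside and 8.86% downstream, with a median 1 bp before the start.

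At snoRNA and snRNA genes, pooled summits stood mostly before the gene, and for snoRNA genes this was seen mainly in replicate 1. The pooled list had 10.7 summits per 100 snoRNA genes from 100 to 50 bp before the start and 10.1 in the last 50 bp, but 3.76 in the first 50 bp of the gene. In the same order the bins held 13.3, 12.7 and 5.78 in replicate 1 alone, but 4.05, 5.49 and 4.62 in replicate 2 alone, which had 4.91 from 100 to 150 bp past the start. Replicate 2 thus showed little concentration before snoRNA genes, with 43.8% of its snoRNA summits upstream (34.4 to 53.4%) against 61.3% in replicate 1 (53.6 to 68.6%). At snRNA genes the bin from 100 to 50 bp before the start held 8.53 in the pooled list, 8.53 in replicate 1 and 6.2 in replicate 2. Of the 64 thresholded snoRNA summits, 52 (81.2%) were upstream, 7 inside and 5 downstream, with a median 45.5 bp before the start. Of the 13 thresholded snRNA summits, 10 were upstream, 0 inside and 3 downstream, with a median 55 bp before the start. Over the whole pooled list 60.3% of snoRNA and 69% of snRNA summits were upstream.

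**Figure D3:**
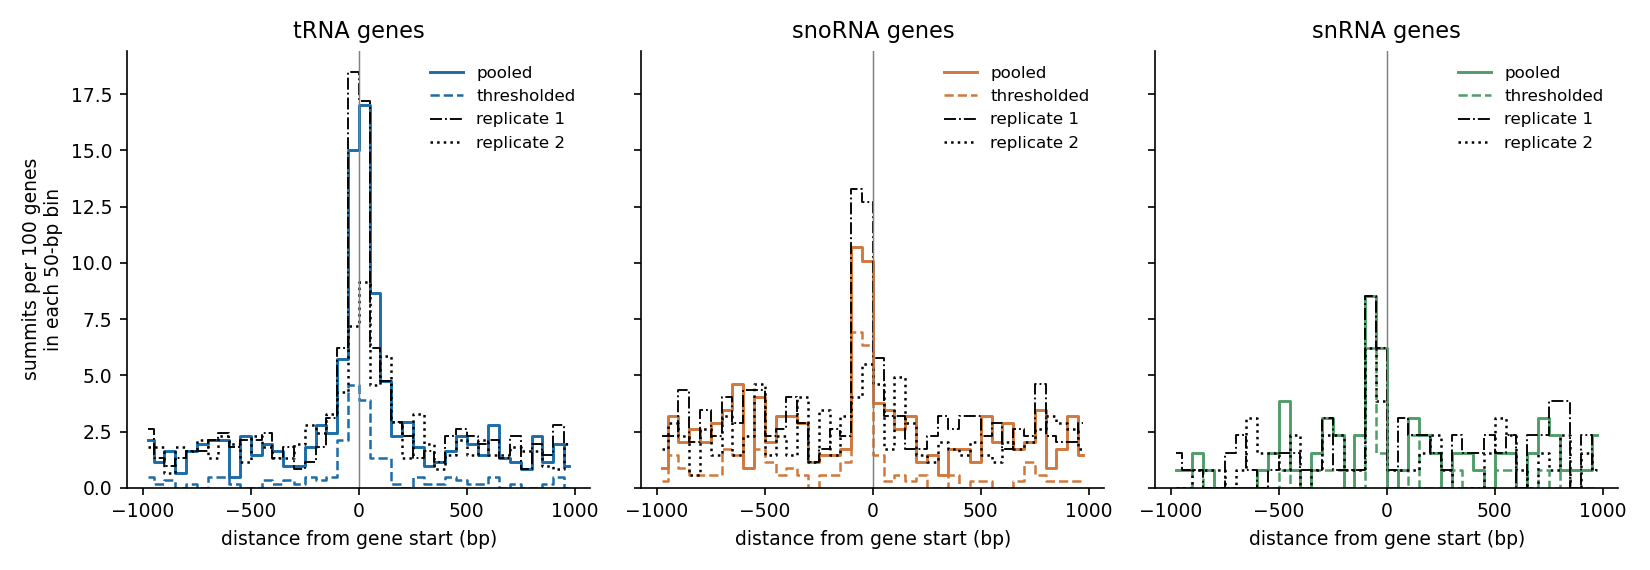
Summits per 100 genes in 50 bp bins (y axis) by distance from the gene start on the strand of the gene (x axis, bp), for the pooled (solid, coloured), thresholded (dashed, coloured), replicate 1 (dash-dotted, black) and replicate 2 (dotted, black) lists. The pooled profile peaks across the start at tRNA genes, at 15 and 17 summits per 100 genes, and before the start at snoRNA and snRNA genes, at 10.7 and 8.53. Replicate 2 reaches 7.19 and 9.15 at tRNA genes and shows no comparable rise before snoRNA genes, with 4.05 and 5.49.

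The RNAs made from tRNA genes carry amino acids to the ribosome. Among tRNA genes the strongest peak lay at B0350.t1, a tRNA-Lys gene on chromosome IV from 5967160 to 5967232, with its summit 32 bp before the start. Its signal was 114.4 in the pooled list (rank 546), and the overlapping peaks had signals of 31 in replicate 1 (rank 2743) and 78.9 in replicate 2 (rank 223). The site thus stood higher in replicate 2, where it was the highest-ranked of the tRNA peaks. A second pooled summit lay 172 bp past the start with a signal of 54.4, and over this pair replicate 1 listed 1 peak and replicate 2 listed 2.

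F46G11.t2, the tRNA-Pro gene shown above, had a summit 38 bp before its start, with signals of 95.5 pooled, 49.6 in replicate 1 (rank 1182) and 43.1 in replicate 2 (rank 1111). F01G12.t1, a tRNA-Glu gene on chromosome X, had a pooled signal of 73.4 and a signal of 46.8 in replicate 1 (rank 1340), with no overlapping peak in replicate 2. C16C8.t1, a tRNA-Lys gene on chromosome II, had signals of 70.1 pooled, 37.1 in replicate 1 and 35 in replicate 2. The replicates thus differed most at F01G12.t1, where 1 of them had no peak.

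B0228.t1, a tRNA-Gln gene on chromosome II whose sequence occurs at 1 place in the genome, had a pooled signal of 69.8 and ranks of 1786 and 2417 in replicates 1 and 2. T23H4.t1, another tRNA-Glu gene, had a pooled signal of 69.2 and ranks of 3427 and 1149. C04A11.t1, the tRNA-Leu gene shown above, had a pooled signal of 68.6 and ranks of 1669 and 2074. The remaining 3 of the 10 strongest were F13G11.t1 (tRNA-Arg, signal 68.3, ranks 875 and 2194), R04D3.t2 (tRNA-Val, 68.1, ranks 1848 and 2273) and F47G6.t1 (tRNA-Arg, 66.2, ranks 971 and 3264). F13G11.t1 had the highest replicate 1 rank of the tRNA peaks. The summit of each of these 10 lay outside protein-coding promoters, and that of R04D3.t2 lay inside the gene, 36 bp past its start.

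Copies of a tRNA gene can be identical, and reads from them may not be placed at 1 copy. Of tRNA genes whose sequence occurs at 1 place, 54 of 140 (38.6%) had a pooled summit, against 53 of 83 (63.9%) at 2 to 5 places and 241 of 389 (62%) at 6 or more. In the thresholded list the shares were 7.86%, 13.3% and 16.5%. How the authors treated reads that map to several copies is not given in the sources used here, and its part in these shares was not tested.

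RefSeq named the amino acid of 607 of the 612 tRNA genes. Isotypes with at least 12 genes ranged from 9 of 12 tRNA-Trp genes (75%, 42.8 to 94.5%) and 30 of 42 tRNA-Pro genes (71.4%, 55.4 to 84.3%) to 17 of 39 tRNA-Ser genes (43.6%, 27.8 to 60.4%) and 8 of 20 tRNA-His genes (40%, 19.1 to 63.9%). The intervals of these 4 isotypes overlapped. In the thresholded list tRNA-Leu had the most genes with a summit, 10 of 39.

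Chromosome X holds 276 of the 612 tRNA genes (45.1%) and had 162 of the 349 tRNA peaks (46.4%), while it had 17.7% of all pooled peaks. By gene, 58.3% of tRNA genes on X had a pooled summit, between 48.5% on chromosome I and 64.9% on chromosome II. Of the 33 snoRNA genes on X, 5 (15.2%, 5.11 to 31.9%) had one, against 27.8 to 48.6% on the autosomes. The interval for X overlapped those of chromosomes III, IV and V and lay below those of I and II. Of tRNA genes nested in a protein-coding gene 157 of 290 (54.1%) had a pooled summit, and of the others 191 of 322 (59.3%). Among snoRNA genes 70 of 216 nested ones (32.4%) and 61 of 130 others (46.9%) had a pooled summit, and 12.5% and 28.5% a thresholded one.

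The strongest snoRNA peak was at T23G11.12, with a summit 100 bp before the gene, signals of 147 pooled (rank 238), 92.1 in replicate 1 (rank 154) and 46.5 in replicate 2 (rank 936), and it also lay in the promoter of T23G11.11. F09G2.14, on chromosome V from 7196237 to 7196580, had signals of 136.9 pooled, 93 in replicate 1 (rank 151) and 50.4 in replicate 2 (rank 755), and lay in the promoters of F09G2.2 and attf-2. D2021.6, on chromosome X, had signals of 111.4, 63.8 and 53.6 in the same order, and lay in the promoter of sdha-1, which encodes a succinate dehydrogenase subunit. These 3 peaks ranked higher in replicate 1 than in replicate 2.

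M7.15, on chromosome IV, had a pooled signal of 106 with ranks of 638 and 997 in replicates 1 and 2, in the promoters of klc-1 and let-70, the latter a ubiquitin-conjugating enzyme gene. F48A9.6, in an intron, had 105.8 with ranks of 393 and 1332. K02F3.15 had 104.3 with ranks of 491 and 1399, its summit 355 bp past the start of the snoRNA gene and within the promoter of zip-2, a bZIP factor gene. F17C11.24 had 101.9 with ranks of 485 and 1348. T03F7.8 had 90.6 with rank 256 in replicate 1 and no overlapping peak in replicate 2. C54G4.16 had 89.6 with ranks of 2588 and 458, the highest replicate 2 rank of the snoRNA peaks.

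A protein-coding promoter was taken to reach from 1000 bp before a transcript start to 200 bp past it. Of snoRNA peaks 33.1% lay in one, of tRNA peaks 22.9% and of snRNA peaks 58.6%, against 37.2% of all pooled peaks. A summit more than 200 bp past a start counts as outside, so some of those outside still lay close to one. For the summits outside such promoters, 36 of 91 snoRNA peaks (39.6%) and 60 of 269 tRNA peaks (22.3%) were thresholded, against 11.7% of all pooled peaks outside promoters. Inside promoters the shares were 62.2% for snoRNA and 23.8% for tRNA peaks, against 26.2%. For tRNA peaks in promoters the share was thus near that of all peaks there.

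A group of snoRNA genes had a B box of the tRNA kind just before the gene, on the same strand, as in the 4 snoRNA starts shown above. GTTCGANNC began within 150 bp before 20 of 346 snoRNA genes (5.78%), and for the 18 with a pooled summit it began 143 to 5 bp before the gene with a median of 14.5 bp. Of these 20 genes, 18 (90%, 68.3 to 98.8%) had a pooled summit and 13 (65%, 40.8 to 84.6%) a thresholded one, against 113 of 326 (34.7%, 29.5 to 40.1%) and 51 of 326 (15.6%, 11.9 to 20.1%) of the other snoRNA genes. The same 20 genes had a summit in 18 cases in replicate 1 and in 14 in replicate 2, against 46% and 27.3% of the others. This class was drawn after the motif counts had been seen, and it is a description with no test.

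Of the 13 thresholded peaks at these snoRNA genes, all had the summit before the gene, from 101 to 13 bp before the start. The strongest were at F12F6.11 (pooled signal 86.9, ranks 758 and 1998 in replicates 1 and 2), T27A3.9 (70.9, ranks 886 and 3459) and F11A10.9 (67.6, ranks 1202 and 5363). Another annotated gene of the 3 biotypes lay within 150 bp of 1 of the 20 genes. Among tRNA genes, 252 of 441 genes with an exact match (57.1%) and 96 of 171 without (56.1%) had a pooled summit.

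Among snRNA genes the sls-2 family led, and its strongest peak was at sls-2.1 on chromosome II from 5844865 to 5844974. The summit lay 65 bp before the gene, within the 100 bases shown above, with signals of 134 pooled (rank 324), 82.5 in replicate 1 (rank 246) and 50.4 in replicate 2 (rank 753). sls-2.4 had 128.3 pooled, 71.5 in replicate 1 and 63.3 in replicate 2, its summit 64 bp before the gene. sls-2.8 had 104.2, 70.6 and 33.4, and sls-2.2 had 84.3, 73.1 and 33.3, with summits 55 and 54 bp before the gene. Replicate 1 and replicate 2 each had a peak at all 4 of these genes.

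At 4 snRNA genes a second pooled summit followed about 200 bp downstream, 136 bp past the start at sls-2.1 (signal 51) and sls-2.4 (39.5), 147 bp past it at sls-2.2 (47.4) and 137 bp past it at C52E4.8 (32.9). The pair at sup-39 was 229 bp apart with signals of 9.41 and 12.1. Replicate 1 listed 2 separate peaks over the pairs at sls-2.1 and sls-2.2 and 1 over those at sls-2.4 and C52E4.8. Replicate 2 listed 2 over the pairs at sls-2.1 and sls-2.4 and 1 over those at sls-2.2 and C52E4.8. Another pooled summit lay within 250 bp of 41.4% of snRNA peaks, of 16.6% of tRNA peaks and of 8.82% of snoRNA peaks, against 8.7% of all pooled peaks. No 2 pooled summits were closer than 199 bp anywhere in the list.

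Of 18 sls-2 genes, 10 had a pooled summit and 4 a thresholded one. Of 12 sls-1 genes, 0 had either, and each sls-1 sequence occurs at 10 to 12 places in the genome, so reads from it may not be placed at 1 copy. W05B2.8, whose sequence occurs at 17 places, still had a peak with signals of 101.5 pooled, 67.1 in replicate 1 and 30.1 in replicate 2. F38E11.10, whose sequence occurs at 2 places, had a pooled signal of 79.7 with ranks of 925 and 3404. Among snRNA genes at 6 or more places 3 of 38 had a pooled summit, against 21 of 83 at 1 place.

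The run GCGGAACCC shared by sls-2.8 and W05B2.8 was found in the 100 bases before 30 of 129 snRNA genes (23.3%) and 17 of 346 snoRNA genes (4.91%), and before 3 of 19973 protein-coding genes and 0 of 612 tRNA genes. It was sought on the strand of the gene, and it began a median of 62 bp before snRNA genes and 64 bp before snoRNA genes. Of the snoRNA genes with it, 10 of 17 had a pooled summit and 8 a thresholded one, and of those without it 121 of 329 had a pooled one. The snRNA genes with it include sls-2.8 and W05B2.8, which defined the run and were picked for their strong peaks. Without them, 7 of 28 snRNA genes with it had a pooled summit and 2 a thresholded one, and of those without it 17 of 99 had a pooled one. The 17 bases before sls-2.1 and sls-2.2 were found before 1 other snRNA gene, which had a pooled summit and no thresholded one, and before 0 genes of the other biotypes counted here.

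The GATA motif was not seen at a higher share of these summits than of the windows beside them. WGATAR stood on either strand within 50 bp of the summit, a window of 101 bp, at 18.3% of the 514 peaks (15 to 21.9%), against 22% (18.5 to 25.8%) and 22.2% (18.7 to 26%) of windows centred 500 bp to the left and right. These intervals overlap. Over all pooled peaks the share was 25.5% at the summit against 19.9% and 20% beside it. Among thresholded peaks the shares were 15.4% at these 156 peaks, with 21.2% and 22.4% beside them, and 37.8% over all 4530. By biotype the share at the summit was 19.2% for tRNA, 17.6% for snoRNA and 10.3% for snRNA peaks. Split at the middle by signal, the stronger and weaker peaks had it at 20.1% and 18.3% for tRNA, 13.2% and 22.1% for snoRNA, and 7.14% and 13.3% for snRNA genes, with overlapping intervals for each biotype.

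Base composition differed as well. The median GC content of the summit window was 46.5% at the 514 peaks and 35.6% in the windows beside them, against 36.6% at the summits of all pooled peaks. In the thresholded list the medians were 50.5% at these peaks and 42.6% over all. Summits were chosen near these genes, so a summit window can cover the gene where a window 500 bp away may not. GC content at genes of these biotypes without a summit is not given here. At the 514 peaks GC content was thus higher, and the WGATAR share lower, than over all pooled peaks. The part of base composition in the WGATAR shares was not tested.

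**Figure D4:**
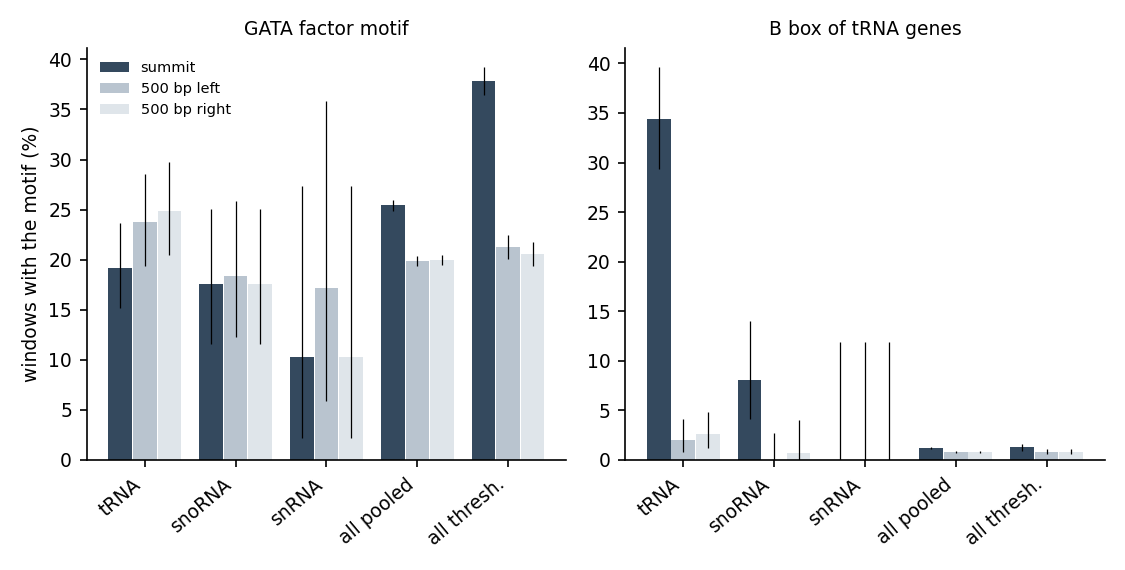
Share of 101 bp windows (y axis, percent) with the GATA factor motif (left) or the B box (right), at the summit and 500 bp to each side, by peak group (x axis), with exact 95% intervals. At tRNA, snoRNA and snRNA peaks the GATA motif stands at 19.2%, 17.6% and 10.3% at the summit, while over all thresholded peaks it stands at 37.8%. The B box stands at 34.4% of tRNA and 8.09% of snoRNA summits.

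The strongest peaks that do hold WGATAR were, among tRNA genes, F01G12.t1, C16C8.t1 and F13G11.t1, and among snoRNA genes C54G4.16, K07E1.2 and F07A11.15. The summit windows of 3 of them are shown on the plus strand, with WGATAR of either strand in capitals: C16C8.t1 (chrII:3439564-3439664) with 3 matches, F01G12.t1 (chrX:16378011-16378111) with 2, and K07E1.2 (chrII:4550164-4550264) with 1.
C16C8.t1: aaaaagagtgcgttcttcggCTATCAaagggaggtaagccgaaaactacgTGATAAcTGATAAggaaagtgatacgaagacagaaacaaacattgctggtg
F01G12.t1: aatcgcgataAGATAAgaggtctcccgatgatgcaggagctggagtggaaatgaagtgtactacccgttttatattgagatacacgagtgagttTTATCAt
K07E1.2: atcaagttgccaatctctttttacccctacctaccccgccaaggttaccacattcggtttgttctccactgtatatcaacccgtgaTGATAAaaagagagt

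K07E1.2 had signals of 67.1 pooled, 41.9 in replicate 1 and 20.9 in replicate 2. F07A11.15, with its summit in an intron and in a promoter of din-1, had 62 pooled and 59.1 in replicate 1, with no overlapping peak in replicate 2. Among snRNA peaks WGATAR stood at 3 of 29, the second summit of sls-2.1, the peak at sls-2.7 (signal 19.9) and that at T14B4.10 (16.4), and the last pair were found in replicate 1 but not in replicate 2.

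Both GAGAGA and CTGCGT, searched on either strand, stood at more of all pooled summits (11.1% and 4.8%) than beside them, and they were present here too. GAGAGA stood at 12.3% of the 514 summits against 7% and 6.23% beside them, and at 15.4% of the thresholded ones against 24.6% of all thresholded peaks. CTGCGT stood at 8.75% against 2.53% and 1.95%, and at 11.5% of the thresholded ones against 12% of all. At tRNA summits CTGCGT stood at 9.46% against 3.15% and 1.72% beside them. R04D3.t2, shown above, holds it inside the gene on the opposite strand. How far this excess follows from choosing summits near tRNA genes was not tested. The B box stood at 34.4% of tRNA summits against 2.01% and 2.58% beside them, at 8.09% of snoRNA and 0 of 29 snRNA summits, and at 1.2% of all pooled summits. These tRNA summits were chosen near tRNA genes, so their windows can cover the B box inside the gene. It is held by 72.4% of tRNA genes with a pooled summit and 71.6% of those without. The excess of the B box at tRNA summits is therefore not read as a result.

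Recovery in the replicates was uneven. Of the 514 peaks, 90.9% overlapped a peak of replicate 1 by 1 bp or more and 71.4% one of replicate 2, and 65% (60.7 to 69.1%) overlapped both, against 42.3% of all pooled peaks. Only replicate 1 had 133 of them (25.9%), and only replicate 2 had 33 (6.42%), where over all pooled peaks the shares were 21.2% and 25.9%. Of the 334 found in both, 239 (71.6%, 66.4 to 76.3%) ranked higher in replicate 1 relative to the length of its list, against 51.4% of all pooled peaks found in both. The replicate 1 list was made from 2 technical libraries, and library and replicate cannot be told apart.

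The difference between replicates held for tRNA and snoRNA genes, and for snRNA genes it had the same direction with overlapping intervals. The share of tRNA genes with a summit was 60.6% in replicate 1 and 39.1% in replicate 2, and of snoRNA genes 48.6% and 29.8%. For snRNA genes it was 25.6% (18.3 to 34%) and 14.7% (9.11 to 22%), and for protein-coding genes 50.2% and 47.2%. With only the strongest 4530 peaks of each replicate, 180 were at these genes in replicate 1 and 104 in replicate 2. In the same order the counts were 96 and 57 at tRNA, 72 and 38 at snoRNA, and 12 and 9 at snRNA genes. Peaks at small RNA genes were thus a larger share of the strong peaks in replicate 1, and the cause was not tested.

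**Figure D5:**
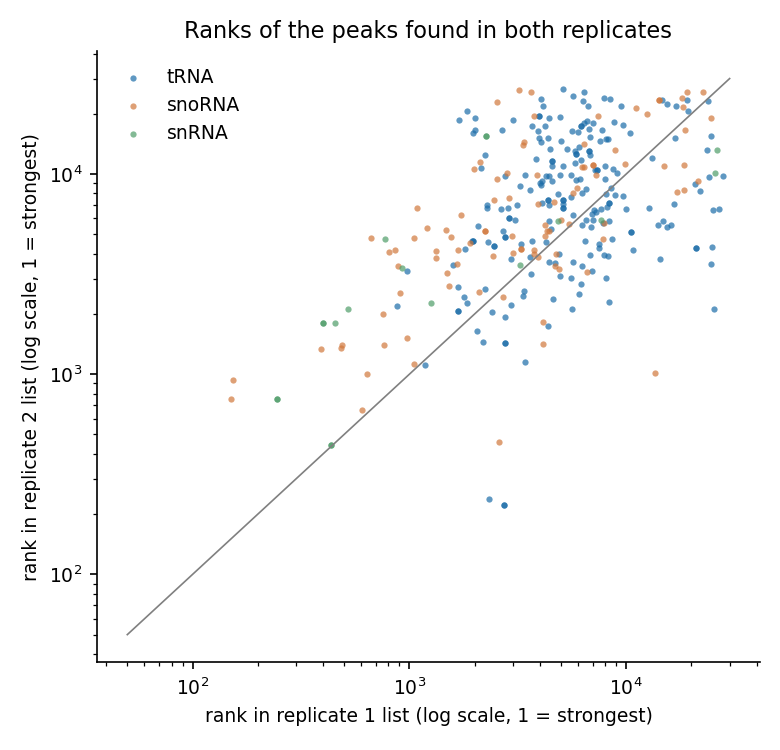
Rank in replicate 1 (x axis) and replicate 2 (y axis) of the 334 peaks at tRNA, snoRNA and snRNA genes found in both, on log scales with 1 the strongest; the line marks equal rank. Most points lie above the line, where the replicate 1 rank is stronger, and 239 of 334 are so relative to list length.

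The proteins that transcribe these genes and package their RNAs were counted from a list of 39, of which 36 were in the annotation. The list was written with earlier results known, so its share supports nothing by itself. A thresholded summit lay in the promoter of 15 of the 36 (41.7%, 25.5 to 59.2%), against 15.5% of all protein-coding genes. Among proteins bound to box C/D snoRNAs, snu-13 had a promoter signal of 127.5, nol-58 of 122.8, fib-1, the methyltransferase fibrillarin, of 85.9, and nol-56 of 57.6, all thresholded. ssb-1, the La protein that binds the ends of RNA polymerase III transcripts, had 96.7. Of the 7 listed SNAPc genes in the annotation, snpc-4 had 50.9 and snpc-3.4 had 67.5, snpc-1.1, snpc-1.2 and snpc-1.3 had pooled summits that were not thresholded (33.7, 14.3 and 8.98), and snpc-3.1 and snpc-3.2 had none. Of the 7 Sm proteins of the snRNP core, snr-3 had 69.2, snr-2 49, snr-4 47.3, snr-7 43.6 and snr-6 40.7, while snr-1 (35.1) and snr-5 (25.9) were not thresholded. The peak counted for snr-4 is the one before the snRNA gene C52E4.8, so it is also among the 514 peaks. rpc-1, the largest subunit of RNA polymerase III, had 36.5, mafr-1, a repressor of that polymerase, had 49.4, and nola-3, a box H/ACA protein, had 58.4. A further 15 genes had a pooled summit in the promoter that was not thresholded, the 3 snpc-1 genes, snr-1 and snr-5 among them, and the 6 with none were rpc-2, rpac-40, snpc-3.1, snpc-3.2, rnp-3 and uaf-1.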

How the data were processed

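ELT-3 chromatin immunoprecipitation was sequenced in 3 libraries of 1 group. The authors deposited peak lists with 1 signal value per peak; its scale is not stated, and which aligner and caller they ran is not given in the sources used here. Per the deposited file descriptions, 4 lists are on ce11 (pooled, thresholded and 1 per replicate); ce10 lists were not used. Ranks were taken within each list. Genes came from Ensembl release 115 on WBcel235, the assembly of ce11; names of tRNA, snoRNA and snRNA genes and tRNA amino acids came from RefSeq, matched by WormBase gene ID for all 1087 genes (amino acid for 607 of 612 tRNA genes). A peak was given to the nearest gene. Copies were counted as exact matches of the gene on both strands of the 6 chromosomes. Coordinates start from 1. No p-values were computed: shares stand beside the same share over all peaks or genes.

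Named genes are the 10 tRNA, 8 snoRNA and 6 snRNA genes with the highest pooled signal, the highest-ranked peak of each replicate per biotype, and the 3 strongest WGATAR peaks per biotype; others were named after their values were seen. The members, motifs and lists were chosen with earlier results of these data known. Functions were tested on simulated data. Alternatives were other distances, windows and overlaps, each replicate alone, and removal of promoter peaks. Python 3.11.15, numpy 2.4.6, pandas 2.3.3, scipy 1.17.1 and matplotlib 3.10.9 were used.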

Additional observations from a re-analysis of the deposited data

How the results depend on the processing

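No paired analysis was possible because the libraries form 1 group. Of 72 alternative values, 44 stayed within the interval of the reported value (counts: within 1.5 times) and 28 moved. With the summit inside the gene, 173 peaks were left, of which 22.5% were thresholded, 89% were in the upper 50% by signal and 12.7% had WGATAR. Within 100 bp, 84.5% were in the upper 50%, and within 500 bp 73.9%. The share of tRNA genes with a summit was 23%, 50.7% and 66.8% for summits inside, within 100 bp and within 500 bp, and 43.6% without summits in protein-coding promoters. For snoRNA genes it was 8.67% inside, 50% within 500 bp and 25.1% without those promoters, and for snRNA genes 1.55%, 31% and 9.3%. With each replicate alone, the number of peaks ran from 374 to 555, tRNA genes from 39.1% to 60.6%, snoRNA genes from 29.8% to 48.6%, snRNA genes from 14.7% to 25.6%, and WGATAR from 16.2% to 17.6%. With only the stronger 50% of the thresholded list, 10.3% of these peaks were in it against 8.54% of all pooled peaks, so the gap over the background narrowed from 30.4% against 17.1%. An overlap of 50% of both peaks left 47.1% found in both replicates, and a summit within the replicate's peak 50.6%. The 42.3% given for all pooled peaks holds for an overlap of 1 bp. It was not computed under these stricter rules, so whether the excess over all pooled peaks remains was not tested. WGATAR stood at 9.73% within 25 bp (10.7% and 12.8% beside the peak) and 32.3% within 100 bp (38.9% and 41.1%). Among thresholded peaks alone, 50.6% of tRNA and 81.2% of snoRNA summits were upstream. In single replicates upstream shares ran from 38.9% to 43.1% for tRNA, 43.8% to 61.3% for snoRNA and 55.9% to 60.9% for snRNA summits. Positions in single replicates, the strongest peaks of each replicate, and summits outside the gene (WGATAR 21.1%), were alternatives chosen after seeing the data. The causes were not tested. Depth is unknown, and 29 snRNA peaks limit every share given for them.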
